A study of Mus musculus with 16 samples.

Results

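The circadian clock and output genes examined here were Per2, Per3, Tef, Hlf, Nr1d2 and Bhlhe41. They were taken by gene symbol, and they made up 9 of the 20794 probes of the array and 6 of the 9026 genes that had a named probe. Per2, Tef and Hlf had 2 probes each, and Per3, Nr1d2 and Bhlhe41 had 1 each. The measurements came from brain and liver of 4 male C57BL/6J mice, 18 weeks old and heterozygous for HdhQ111 (HdhQ111/+), a knock-in allele with a lengthened CAG repeat at the locus of huntingtin (Htt) itself. The reference for each tissue was a pool of RNA from 4 wildtype C57BL/6J males of the same age, and the same 4 wildtype mice were listed for both pools. Every mutant RNA was hybridised on 2 arrays with the dyes swapped, which gave 16 arrays. All arrays shared the strain, the sex and the age. The tissues were labelled brain and liver with no region stated, and the time of day at which they were taken, on which clock transcripts depend, is a detail not given in the sources used here.

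Mammals keep time with a transcriptional feedback loop. The activators BMAL1 (Arntl) and CLOCK bind E-box elements and drive the Period and Cryptochrome genes, whose proteins return to the nucleus and repress the same activators. A second loop runs through the REV-ERB repressors (Nr1d1, Nr1d2) and the ROR activators, which compete for elements that control Arntl. Output is passed on in part by the PAR bZIP factors Dbp, Tef and Hlf, which bind D-box elements, and in liver these cycles control detoxification, lipid and bile acid metabolism. Per2, Per3, Tef, Nr1d2 and Bhlhe41 are themselves rhythmic in many mouse tissues, so their level depends on the phase at which a tissue is taken.

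The sequences just before the annotated start of 4 member genes are shown because they carry the letters of the elements through which clock genes are joined. RefSeq (GRCm38.p6) promoter windows of 250 bases were found for Per3, Tef (2 starts), Hlf, Nr1d2 and Bhlhe41. Each window is on the strand of its gene, and the capitals mark the motif letters found in it on either strand.
Per3, chr4:151044666-151044915, minus strand: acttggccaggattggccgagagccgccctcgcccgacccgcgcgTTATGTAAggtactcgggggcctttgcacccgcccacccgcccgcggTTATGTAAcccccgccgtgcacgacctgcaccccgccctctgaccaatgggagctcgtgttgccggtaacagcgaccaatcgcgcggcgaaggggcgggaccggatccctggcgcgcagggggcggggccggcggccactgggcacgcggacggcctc
Tef start 1, chr15:81802423-81802672, plus strand: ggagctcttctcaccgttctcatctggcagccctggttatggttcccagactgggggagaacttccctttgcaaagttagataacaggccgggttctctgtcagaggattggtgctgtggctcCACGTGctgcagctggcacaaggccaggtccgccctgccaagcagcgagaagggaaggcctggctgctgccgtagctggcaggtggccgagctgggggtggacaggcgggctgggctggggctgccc
Tef start 2, chr15:81811164-81811413, plus strand: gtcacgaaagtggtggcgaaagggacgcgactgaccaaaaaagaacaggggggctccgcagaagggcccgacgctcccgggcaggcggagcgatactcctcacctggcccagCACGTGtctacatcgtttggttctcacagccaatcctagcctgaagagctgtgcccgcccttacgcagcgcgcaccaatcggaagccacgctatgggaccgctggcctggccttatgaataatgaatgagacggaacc
Bhlhe41, chr6:145865421-145865670, minus strand: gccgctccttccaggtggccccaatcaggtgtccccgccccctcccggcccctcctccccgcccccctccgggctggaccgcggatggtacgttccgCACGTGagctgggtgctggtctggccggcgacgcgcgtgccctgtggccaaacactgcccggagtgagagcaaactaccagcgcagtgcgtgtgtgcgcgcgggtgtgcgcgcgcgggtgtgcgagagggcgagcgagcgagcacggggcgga
Nr1d2, chr14:18239107-18239356, minus strand: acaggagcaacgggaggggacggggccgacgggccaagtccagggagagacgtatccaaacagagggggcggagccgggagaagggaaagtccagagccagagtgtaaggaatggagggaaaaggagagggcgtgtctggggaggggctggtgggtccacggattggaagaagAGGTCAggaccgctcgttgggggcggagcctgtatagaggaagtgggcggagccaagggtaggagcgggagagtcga
The Per3 window held the D-box letters TTATGTAA at 2 places, starting at -205 and -158 from the start of transcription, while 0.819% of 32851 mouse windows of the same length held them at all. Both Tef windows held the E-box CACGTG, at -127 and at -138, and the Bhlhe41 window held it at -153, against 6.02% of all windows. The Nr1d2 window held the nuclear receptor letters AGGTCA at -77, against 14% of windows. The letters CACGTT (3.85% of windows), TTACGTAA (0.113%) and TAGGTCA (2.23%, a form that contains AGGTCA) were in none of the member windows. The Hlf window (chr11:90390918-90391167, minus strand) held none of the 6 motifs searched. These are matches of letters in a short window, and no binding was measured.

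All values below are log2 ratios, likely of HdhQ111/+ over the wildtype pool of the same tissue, so that a negative value means less signal in the mutant. A mouse value is the mean of its 2 dye-swapped arrays, and the mouse is the replicate. A ratio gives no level, so neither the order of expression among these genes nor the identity of each tissue could be read from these values. In bulk RNA, fewer cells that express a gene and less of its RNA per cell cannot be told apart. Each array had values for 19530 to 20584 probes, and array medians lay between -0.128 and 0.246. Of 1496 values with a size of 16.492 to 16.987, which look like ratios against a channel at a floor, 2 belonged to a member, both of them to the second Hlf probe. The probes with a value in all 8 mouse and tissue combinations numbered 7 of 9, since Per3 and the second Hlf probe lacked brain of mouse 1. No row named Htt was analysed here, so the targeted gene gave no check of the genotype labels.

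In liver, both Per2 probes, the Per3 probe, both Tef probes and 1 Hlf probe lay below 0 in all 4 mice, while Bhlhe41 and the other Hlf probe lay above 0 in all 4. In brain, Nr1d2 and 1 Hlf probe were below 0 in every mouse with a value. None of the 9 member probes passed an adjusted p of 0.05 in either tissue. By limma with Benjamini-Hochberg adjustment, 0 of 19325 probes passed in brain (0.0%) and 0 of 20127 in liver (0.0%), so the test called nothing anywhere on the array. At an unadjusted p under 0.05, 677 probes were reached in brain (3.5% of those tested, either direction) and 0 of 9 member probes. In liver 829 probes (4.12%) lay lower at that level and 580 (2.88%) lay higher. Among the members 5 of 9 were lower (both Per2 probes, Per3 and both Tef probes) and 0 were higher. The members were chosen with earlier results of these data known, and probes of 1 gene are not independent. The contrast with all probes is therefore no separate support.

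**Figure D1:**
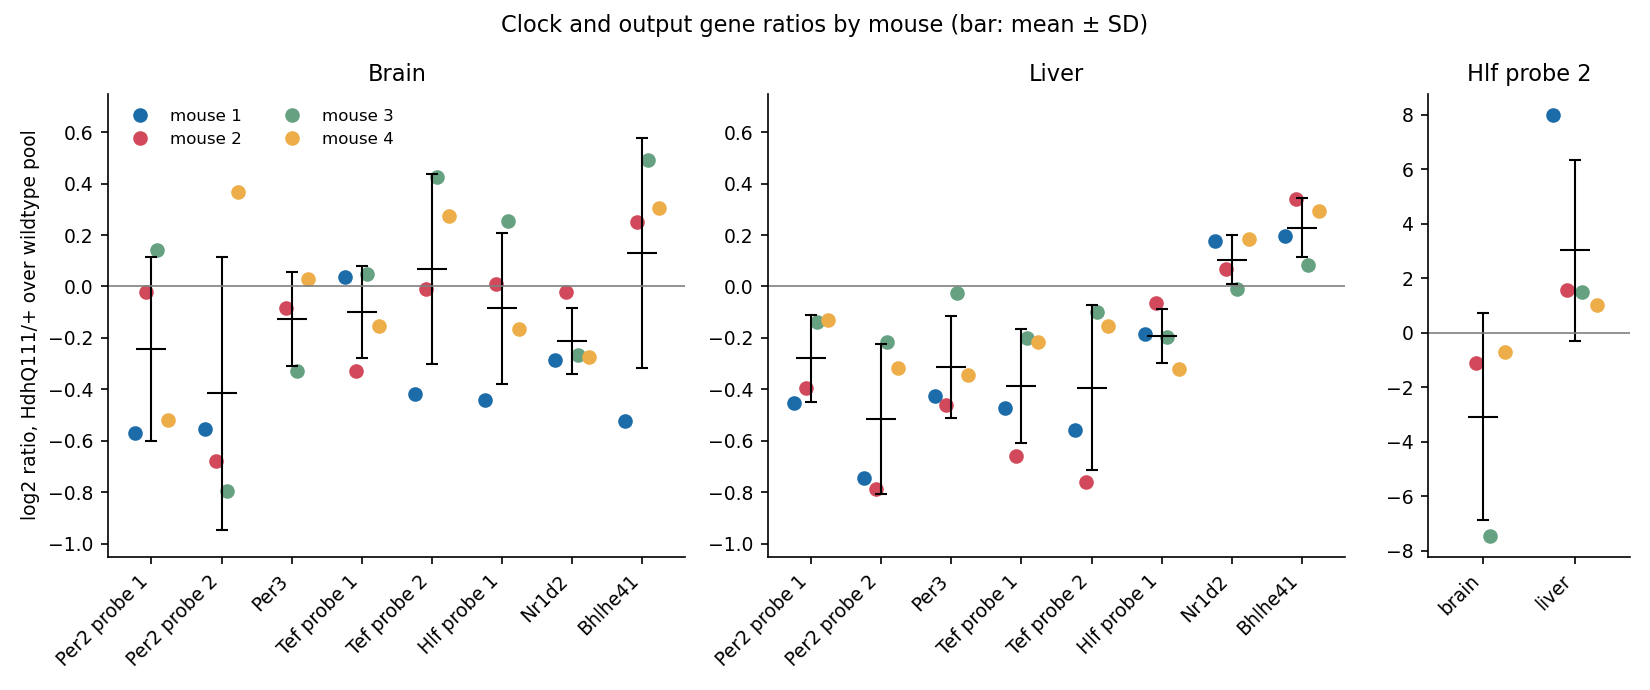
Log2 ratio of HdhQ111/+ over the wildtype pool (vertical axis) for each member probe (horizontal axis) in brain and liver; each coloured point is 1 mouse (mean of 2 dye-swapped arrays), and the black lines give the mean ± SD of the mice. The second Hlf probe, with mice at -7.45 and 8.0, has its own panel and scale; in liver the 5 Per2, Per3 and Tef probes lie below 0 in all 4 mice, and in brain the mice spread to both sides for most probes.

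Per2 and Per3 encode PERIOD proteins, which act in the repressive arm of the loop. The first Per2 probe (array probe 527) had liver values of -0.45, -0.39, -0.14 and -0.13 in mice 1 to 4, with a mean of -0.28 ± 0.17 (SD, n = 4). The second Per2 probe (2333) had liver values of -0.74, -0.79, -0.22 and -0.32, with a mean of -0.52 ± 0.29 (SD, n = 4). On both probes mice 1 and 2 were lower than mice 3 and 4. As linear ratios the means were 0.825 and 0.699, and the 95% intervals of the log2 means ran from -0.54 to -0.02 and from -0.86 to -0.17. Both had an adjusted p of 0.636.

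Per3 (2839) had liver values of -0.42, -0.46, -0.02 and -0.34, with a mean of -0.31 ± 0.20 (SD, n = 4), a linear ratio of 0.805 and an adjusted p of 0.636. Mouse 3 was close to 0 and the other 3 were between -0.46 and -0.34. In brain, Per3 was at -0.08, -0.33 and 0.03 in mice 2 to 4, which lie on both sides of 0, and its mean was -0.13 ± 0.18 (SD, n = 3). The first Per2 probe was at -0.57, -0.02, 0.14 and -0.52 in brain, with a mean of -0.24 ± 0.36 (SD, n = 4). The second was at -0.55, -0.68, -0.79 and 0.37, with a mean of -0.42 ± 0.53 (SD, n = 4). Each Per2 probe thus had 3 brain mice below 0 and 1 above, but the mouse above was mouse 3 on the first probe and mouse 4 on the second. The adjusted p was 0.998 for every member probe in brain.

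Tef encodes thyrotroph embryonic factor, a PAR bZIP activator that binds D-box elements and, with Dbp and Hlf, drives rhythmic detoxification genes in liver. Its first probe (8968) had liver values of -0.47, -0.66, -0.20 and -0.22, with a mean of -0.39 ± 0.22 (SD, n = 4). Its second probe (13774) had liver values of -0.56, -0.76, -0.10 and -0.15, with a mean of -0.39 ± 0.32 (SD, n = 4). The probes gave nearly the same mean, with linear ratios of 0.765 and 0.762, and the same ranking of mouse 2 lowest and mouse 3 highest. Their 95% intervals were -0.68 to -0.09 and -0.76 to -0.03, and the adjusted p was 0.636 for both. With the probes of a gene averaged before the test, Tef was at -0.39 in liver with an adjusted p of 0.598 and Per2 at -0.40. In brain, Tef was at 0.04, -0.33, 0.05 and -0.15 on the first probe and at -0.42, -0.01, 0.43 and 0.27 on the second. The brain means of -0.10 ± 0.18 and 0.07 ± 0.37 (SD, n = 4) differed in sign and were within the spread between mice.

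Hlf, which encodes hepatic leukemia factor, the other PAR bZIP member, had probes that disagreed. The first (17775) was at -0.19, -0.06, -0.20 and -0.32 in liver, a mean of -0.19 ± 0.10 (SD, n = 4) with an interval of -0.42 to 0.04. In brain it was at -0.44, 0.01, 0.25 and -0.16, a mean of -0.09 ± 0.29 (SD, n = 4). The second probe (18811) was at 8.0, 1.56, 1.5 and 1.02 in liver, and at -1.10, -7.45 and -0.70 in brain mice 2 to 4. The value of 8.0 contains 1 ratio of 16.73 on the array with mutant RNA in Cy5, and the value of -7.45 contains 1 of -16.99 on the array with it in Cy3. Without those ratios the liver mean was 1.36 over the other 3 mice, and brain kept 2 mice and was not tested. No direction for Hlf is given from these probes.

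Nr1d2 encodes REV-ERB beta, a heme-binding repressor of the stabilising loop. It was at -0.29, -0.02, -0.27 and -0.28 in brain, a mean of -0.21 ± 0.13 (SD, n = 4), with mouse 2 close to 0 and the other 3 within 0.02 of each other. In liver it was at 0.18, 0.07, -0.01 and 0.18, a mean of 0.10 ± 0.09 (SD, n = 4) with an adjusted p of 0.689. Every brain value was below every liver value, by as little as -0.02 against -0.01, an order that 2.04% of 19055 probes showed. Bhlhe41 encodes DEC2, a basic helix-loop-helix repressor that competes for E-boxes. It was at 0.19, 0.34, 0.08 and 0.30 in liver, a mean of 0.23 ± 0.11 (SD, n = 4), a linear ratio of 1.17 and an adjusted p of 0.636. In brain it was at -0.52, 0.25, 0.49 and 0.30, a mean of 0.13 ± 0.45 (SD, n = 4), with mouse 1 alone below 0.

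Counted over mice, 6 of 9 member probes lay below 0 in every liver mouse, where 12.7% of all 20127 probes did, and 2 of 9 lay above 0 in every liver mouse, where 8.43% did. In brain the counts were 2 of 9 below, against 5.7% of 19325 probes, and 0 of 9 above, against 6.78%. The liver share below 0 was thus well above the background, but the members were chosen with earlier results of these data known, and probes of 1 gene are not independent. From the arrays with mutant RNA in Cy5 alone, 3 of 9 lay below 0 in every liver mouse, where 12.1% of all probes did. Without mouse 4 the brain count was 4 of 9, against 11.7%. The median of the member probes was -0.28 in liver and -0.13 in brain, where the median of all probes was -0.02 and 0.02. In liver, 2.03% and 9.36% of all probes lay lower than the Per2 probes, 4.04% and 3.83% lower than the Tef probes and 6.82% lower than Per3. For Bhlhe41 86.7% lay lower, and for Nr1d2 72.3%.

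**Figure D2:**
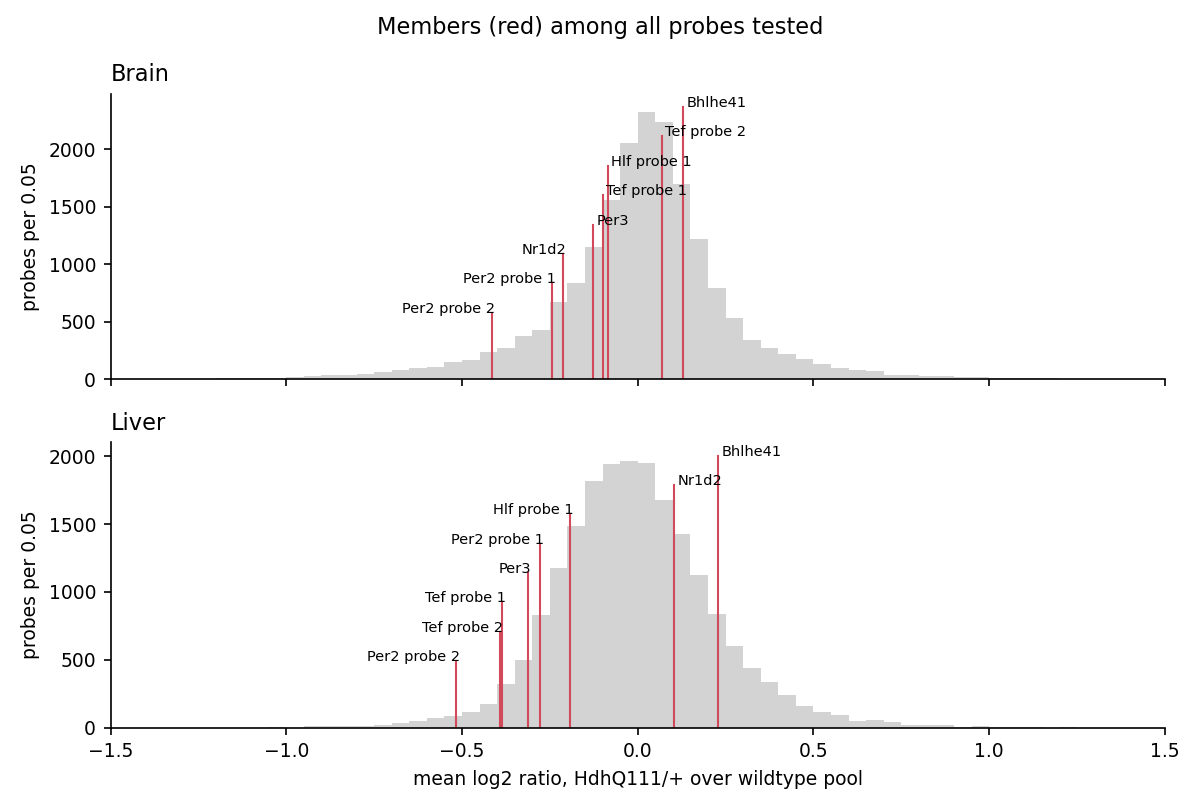
Distribution of the mean log2 ratio over all probes tested (grey, number of probes on the vertical axis) in brain and liver, against that ratio on the horizontal axis; red lines mark the means of 8 member probes, their heights carry no value, and the second Hlf probe lies outside the range. In liver the Per2, Per3 and Tef lines lie on the lower flank, from -0.52 to -0.28, and in brain the lines run from -0.42 to 0.13.

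The liver mice were not alike. Over the 5 Per2, Per3 and Tef probes, mouse 1 ranged from -0.74 to -0.42 and mouse 2 from -0.79 to -0.39, whereas mouse 3 ranged from -0.22 to -0.02 and mouse 4 from -0.34 to -0.13. The values of mice 1 and 2 did not overlap those of mice 3 and 4. This split of the mice was seen in these same values, and the share of all probes with mice 1 and 2 lowest was not counted. The split is therefore not given as a trait of these genes. Genes outside the members had that order in liver too, such as Bhlhe40 and the choroid plexus marker Folr1. The spread of all probes was also wider in mice 1 and 2 than in mice 3 and 4, but mouse 2 was close to mouse 3. Its part in the member values was not tested. The median size of a mouse value over all probes was 0.308, 0.203, 0.176 and 0.123 in liver of mice 1 to 4. The interquartile range of the liver arrays was 0.867, 0.501, 0.465 and 0.427 for mutant RNA labelled in Cy5, and 1.27, 0.728, 0.588 and 0.383 for Cy3. With all arrays of a tissue set to 1 interquartile range, the liver means were -0.21 and -0.44 for Per2, -0.24 for Per3 and -0.32 and -0.31 for Tef. In brain, mouse 1 had the lowest value for 5 of the 9 member probes and mouse 3 the highest for 5, and the member median without the second Hlf probe was -0.44, -0.02, 0.10 and -0.06 in mice 1 to 4. The liver medians were -0.44, -0.43, -0.12 and -0.19.

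The dye-swapped arrays show how far a mouse value rests on 1 labelling. In liver, both arrays of a pair had the same sign in 22 of 36 member pairs (61.1%), where 40.3% of 79631 pairs over all probes did. In brain it was 17 of 34 (50.0%) against 43.6% of 76870. These shares are not separate support for the low liver means. The members were chosen with earlier results of these data known, and pairs with a mean far from 0 share a sign more readily. The second Tef probe had the same sign in all 4 liver pairs. Its liver ratios with mutant RNA in Cy5 were -0.23, -0.93, -0.07 and -0.21, and with it in Cy3 they were -0.89, -0.59, -0.13 and -0.10. Each of the Per2, Per3 and first Tef probes had it in 3 of 4 liver pairs, but the size of several liver means depended on the labelling. From Cy5 arrays alone and Cy3 arrays alone, the first Per2 probe was at -0.104 and -0.453. Per3 was at -0.146 and -0.48, and the first Tef probe at -0.146 and -0.626. The second Per2 probe, at -0.575 and -0.459, and the second Tef probe, at -0.359 and -0.427, differed less. Nr1d2 had the same sign in 1 of 4 pairs in each tissue, with a mean dye deviation of 0.57 in brain and 0.26 in liver. Its brain mean therefore depended on the labelling. It was 0.36 from the arrays with mutant RNA in Cy5 alone, of the opposite sign to the mean of both. Bhlhe41 had the same sign in 1 of 4 liver pairs. Its liver mean was -0.01 from the Cy5 arrays alone. Per3 had it in 0 of 3 brain pairs.

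**Figure D3:**
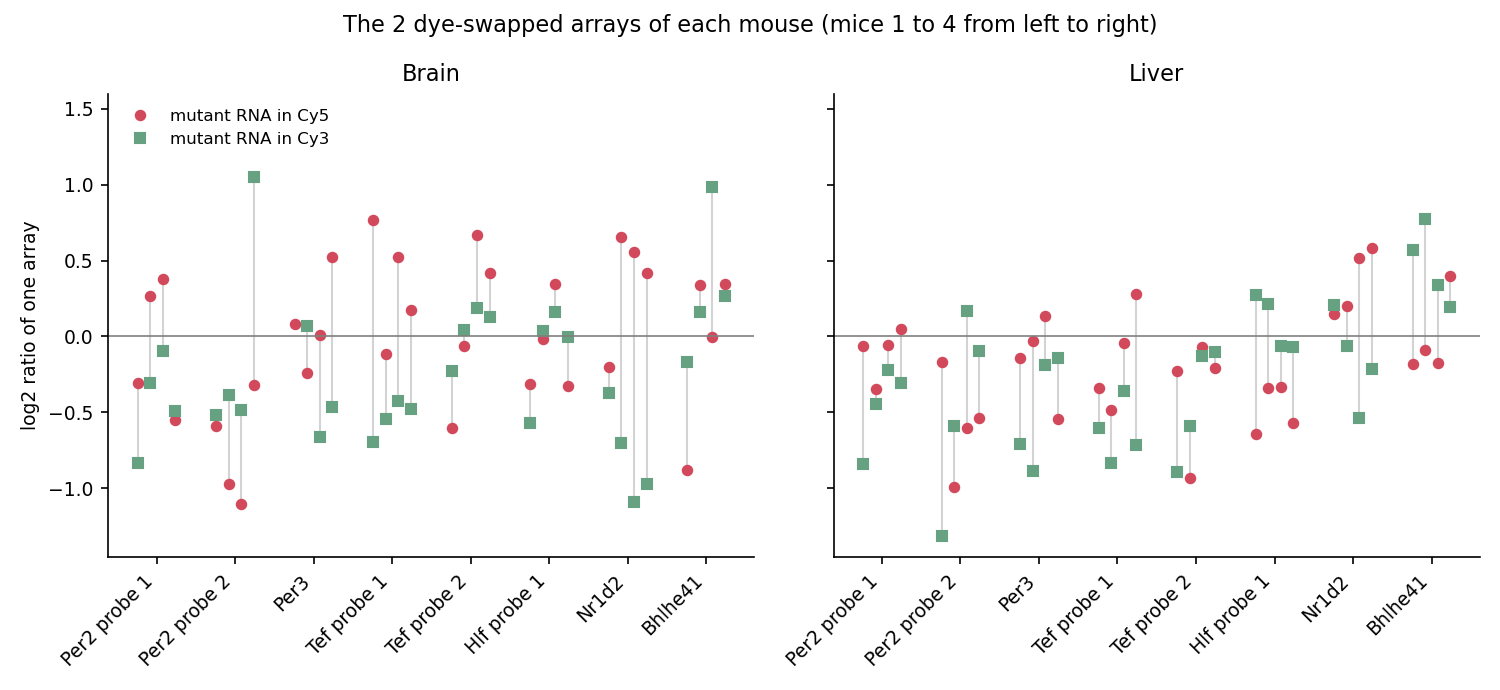
Log2 ratio of each array (vertical axis) for 8 member probes (horizontal axis) in brain and liver, with circles for mutant RNA in Cy5, squares for mutant RNA in Cy3 and a line joining the arrays of 1 mouse. All 8 liver arrays lie below 0 for the second Tef probe, while the circles of Nr1d2 in brain mice 2 to 4 lie above 0 and the squares below it.

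The liver-minus-brain difference asks whether the ratio differed between tissues of the same mice. Only 1 of 19055 probes passed an adjusted p of 0.05 (0.00525%), a probe of the pituitary hormone Prl, and 0 of 9 member probes did. At an unadjusted p under 0.05, 1233 probes were reached (6.47%, either direction), and the members among them were Nr1d2 and the second Hlf probe. Nr1d2 differed by 0.32 (SE 0.13) and was higher in liver than in brain in 4 of 4 mice, with a 95% interval of 0.01 to 0.62 and an adjusted p of 0.739. The difference depended on the labelling, since it was 0.003 from the arrays with mutant RNA in Cy5 alone and 0.63 from those in Cy3 alone. Tef differed by -0.29 (SE 0.17) and -0.46 (SE 0.24) on its probes, and both were lower in liver in 4 of 4 mice. Their intervals were -0.67 to 0.09 and -1.0 to 0.08, with adjusted p of 0.749 and 0.739. The differences of Per2 were -0.04 (SE 0.20) and -0.10 (SE 0.28), with intervals of -0.50 to 0.43 and -0.74 to 0.54 that include 0. For Per3 the difference was -0.19 (SE 0.18; -0.38 without mouse 3), for the first Hlf probe -0.11 (SE 0.17) and for Bhlhe41 0.10 (SE 0.23), each about as large as its standard error or smaller.

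The rest of the clock was read from lists. Of 8 activators and their antiphase partners, 3 genes had a named probe, and the members' activators Arntl and Clock were not among them. Npas2, a partner of BMAL1, was at 0.05 ± 0.20 in brain and 0.23 ± 0.55 in liver (SD, n = 4). Nfil3, a repressor that competes for D-boxes, was at -0.10 ± 0.26 and -0.09 ± 0.37. Rora, the ROR alpha activator, had 3 probes with liver means of -0.03, -0.03 and 0.00, and brain means of 0.14 and 0.04 on the probes with at least 3 mice. None of these had an unadjusted p under 0.05 in either tissue.

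Of 8 repressors and stabilising genes, 6 had a named probe, and 0 of their 7 probes had an unadjusted p under 0.05. Dbp, the third PAR bZIP gene, was at -0.48, -0.56, 0.15 and 0.03 in liver, a mean of -0.21 ± 0.36 (SD, n = 4), and 0.05 ± 0.38 in brain. Mice 1 and 2 were again the low ones, but mice 3 and 4 were not below 0. Bhlhe40, the DEC1 gene, was at -0.19 ± 0.26 in liver and -0.03 ± 0.24 in brain. Cry1 was at 0.13 ± 0.44 in liver and 0.06 ± 0.42 in brain, and Per1 was at 0.07 ± 0.28 in liver and -0.18 ± 0.26 (n = 3) in brain. Per1 thus had no liver mean below 0, unlike Per2 and Per3, although the differences between these genes were not tested. Nr1d1, the REV-ERB alpha gene, had probes at 0.32 ± 0.43 and -0.03 ± 0.36 in liver and at -0.07 ± 0.32 and 0.13 ± 0.21 in brain. Timeless was at 0.13 ± 0.74 in liver and 0.04 ± 0.98 (n = 3) in brain.

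Clock-controlled outputs had the lowest liver median among the other clock lists and the list of glucocorticoid and feeding responsive genes. Of 21 listed gene names, among which Nocturnin, Ccrn4l and Noct name the same gene, 12 had a probe. In liver 10 of 14 probes tested lay below 0, where 53.6% of all liver probes did, with a median of -0.15. Among them 3 had an unadjusted p under 0.05 and lay lower, and 1 lay higher. Over all liver probes, 4.12% lay lower at that level and 2.88% higher. The lists were chosen with earlier results of these data known, so these counts are no separate support. Alas1, the first enzyme of heme synthesis, was at -0.77, -0.44, -0.42 and -0.63 in liver, a mean of -0.57 ± 0.16 (SD, n = 4) with an adjusted p of 0.636. Usp2, a ubiquitin protease, was at -0.39, -0.44, -0.31 and -0.12 in liver and 0.07 ± 0.15 in brain. Nr1i3, the CAR nuclear receptor of detoxification, was at -0.31 ± 0.16 in liver on 1 probe, and below 0 in 4 of 4 mice. Its other probe (17252) had liver mouse 4 at 8.46 from a floor ratio. Liver mice 1 to 3 were at 0.119, -0.778 and 0.425 on that probe, on both sides of 0. Pnpla2, a triglyceride lipase, was the output higher in liver, at 0.49 ± 0.28, and was at -0.19 ± 0.36 in brain. Lpin1 was at -0.22 ± 0.11 in liver and 0.24 ± 0.20 in brain on the probe chosen by size of p (2875). Its other tested probe (13228) was at -0.07 ± 0.16 in liver and -0.29 ± 0.32 in brain. The liver-minus-brain differences of these probes, -0.46 and 0.22, were of opposite sign. The adjusted p of the liver-minus-brain difference was 0.739 for Usp2, Pnpla2 and the Lpin1 probe chosen by size of p.

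**Figure D4:**
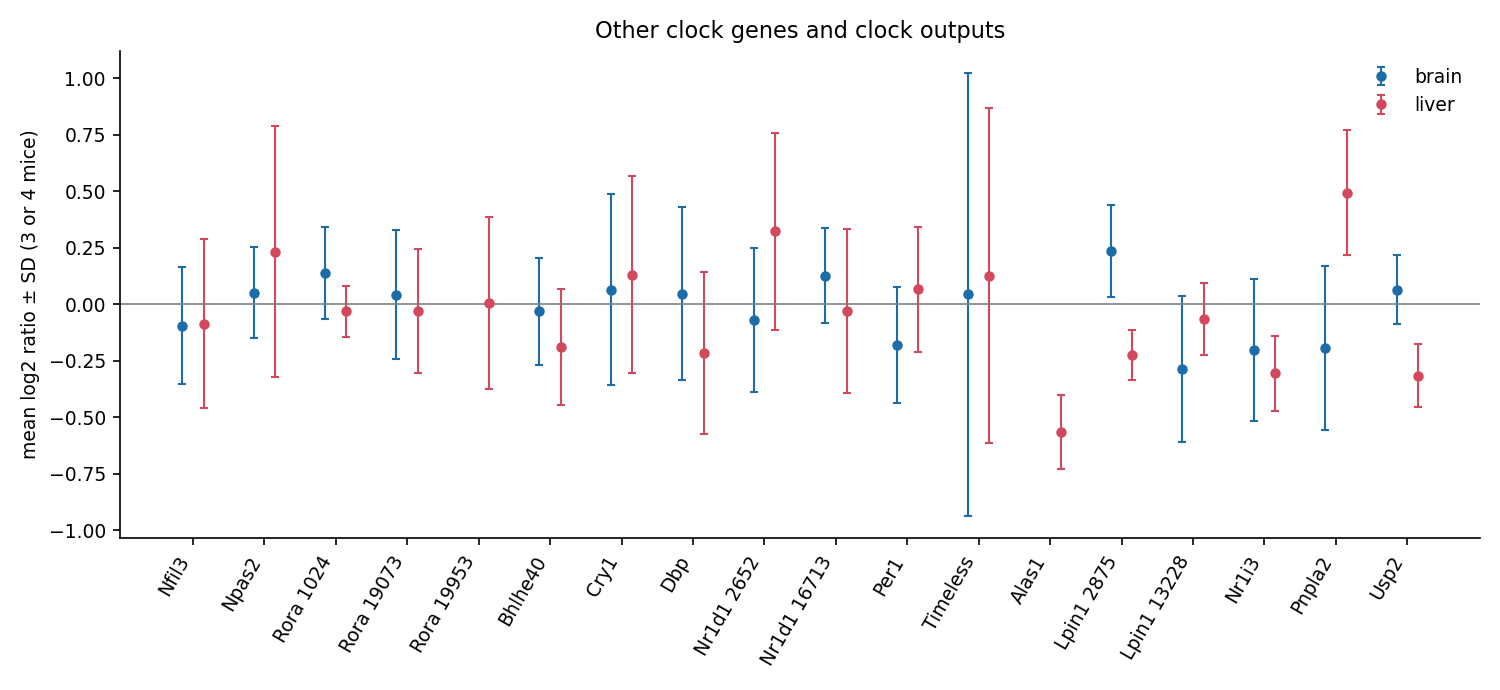
Mean log2 ratio (vertical axis, points, with bars of ± SD over 3 or 4 mice) in brain (blue) and liver (red) for probes of other clock genes and clock outputs (horizontal axis, with array probe numbers where several probes of a gene are shown). The Nr1i3 probe with a floor ratio (17252) is left out. Alas1, at -0.57, is the lowest liver mean shown, Pnpla2 at 0.49 the highest, and the bars of most other genes cross 0.

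Of 12 clock kinases and ubiquitin ligases, 7 had probes, 15 in all. The median was 0.04 in brain and -0.06 in liver, and 1 of 14 tested probes in each tissue had an unadjusted p under 0.05. At that level were 3.5% of all brain probes in either direction, and 2.88% of all liver probes lay higher. The list members at that level were Csnk2a1 on 1 of 3 probes, at 0.46 ± 0.34 in brain, and Fbxw11, a ubiquitin ligase subunit, at 0.23 ± 0.04 in liver. Csnk1a1 on 1 of 4 probes differed between tissues by -0.66. Of 12 glucocorticoid and feeding responsive genes, 4 had probes, with a median of 0.01 in each tissue and 0 at an unadjusted p under 0.05. No probe of these lists passed an adjusted p of 0.05.

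The named genes most like each member, by the root mean square difference over the 8 mouse values among 7502 genes, were Des and Pbld2 for Per2 (0.183 and 0.184). For Tef they were Aldh3a2 and Stard10 (0.101 and 0.108), for Nr1d2 Acot11 and 2300002M23Rik (0.0993 and 0.1), and for Bhlhe41 Stat5b and Mlc1 (0.14 and 0.148). For Per3, over 7 values and 7612 genes, Shmt2 and Fah came first (0.0943 and 0.111) and Per2 was 6th (0.155). Tef stood 47th in the order for Per2 (0.258) and 387th for Per3 (0.251), but Per2 stood 724th in the order for Tef. Nr1d2 and Bhlhe41 stood 2390th and 5712th for Per2. For Hlf, Dap3 and Mtfr1 were nearest at 1.12 and 1.22, a likeness set by the floor ratios.

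Marker genes of other cell types were read in the same arrays, and none passed an adjusted p of 0.05 in either tissue. In brain, 6 of 6 pituitary probes lay below 0 (44.8% of all brain probes did), from -4.35 to -0.08 with a median of -2.19. Of these, 4 had an unadjusted p under 0.05 (3.5% of all brain probes did, in either direction). In liver, 6 of 7 blood probes lay below 0 (53.6% of all liver probes did), with a median of -0.72. The 5 of them at an unadjusted p under 0.05 (4.12% of all liver probes lay lower at that level) were all probes of 1 gene, Hba-a1. Of the other blood genes, Alas2 was at 0.17 ± 0.25 (SD, n = 4) in liver and Slc4a1 at -0.21 ± 1.27 (SD, n = 3). The 5 tested Hba-a1 probes, for alpha globin, ranged from -0.89 to -0.58 and were lowest in mouse 4, and the other Hba-a1 probe, with only 2 liver mice, was at -0.36 and 1.25. The brain median of the blood probes was 0.04. The 4 tested probes of suprachiasmatic and hypothalamic genes ranged from -0.12 to 0.20 in brain, choroid plexus probes had a brain median of -0.14 and neuron and glia probes one of -0.05. The 8 hepatocyte probes ranged from -0.20 to 0.00 in liver, with a median of -0.14 and 0 at an unadjusted p under 0.05. Their liver means lay below 0 in 8 of 8, where 53.6% of all liver probes did, and 1 of them rounds to 0.00. Choroid plexus probes lay below 0 in liver in 4 of 4, with a median of -0.16, and Ttr is in both lists. The part of these cell types in the clock gene values was not tested.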

How the data were processed

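The authors deposited 1 log2 ratio per probe for each of 16 arrays, already normalized. Base 2 was assumed, since no header states it, and the normalization, background correction and spot filters are not given in the sources used here. Per the labels' protocols, cDNA made from total RNA was labelled with Cy3 or Cy5 by an indirect method. Depth has no meaning for arrays, and their number limits the precision. No intensities were used here, so neither a filter on dim probes nor the slide as a block was run.

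The direction was read from the data. Across 20599 probes the dye difference of a swapped pair (the deviation of an array from the pair mean) correlated between brain and liver (Spearman's rho 0.397, across probes) and the pair mean did not (-0.0075). The deposited ratios were therefore averaged without turning any, and the sign as mutant over wildtype is likely, as the labels list the mutant RNA as the first channel.

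Symbols came from the platform annotation, where 12771 probes had 1 symbol and 8023 none, and all 12771 matched RefSeq. The symbol of probe n was given to value row n + 11. No source states this offset, which was noticed in earlier work on these data. Over 121 offsets, probe pairs of 1 gene correlated by 0.102 on average at offset 11 (2983 pairs), 0.0427 at 0 and at most 0.0612 elsewhere, and every gene name printed depends on it.

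Mouse values (means of both arrays, n = 4 per tissue) were compared with 0 by limma 3.58.1 (R 4.3.3, lmFit and eBayes, two-sided) for probes with at least 3 mice, and p-values were adjusted by Benjamini-Hochberg over all probes. Intervals are at 95%. Each wildtype pool counted as a single control sample (1 per tissue), so the tests leave out its own spread. The liver-minus-brain difference was fitted over the 8 mouse values without a block, and both tissues shared mutant and wildtype mice. The mouse as a replicate block was an alternative. Both tissues came from the same animals per the labels. The deviations of a mouse from its tissue means correlated between brain and liver by 0.0533, -0.0129, 0.0838 and 0.0199 (Spearman's rho, across probes) in mice 1 to 4. Brain of 1 mouse with liver of another gave -0.0713 to 0.0599. These ranges overlap, so the correlations cannot check the pairing. The code was tested on simulated data.

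Members and lists were chosen with earlier results of these data known. The text names every member probe, every probed gene of the first pair of clock lists and the 2 nearest genes of each member. Of the other clock lists and the glucocorticoid and feeding list, it names genes at an unadjusted p under 0.05 (up to 10). Alternatives are given in the closing section, and 1 of them (floor ratios removed and arrays scaled together) was chosen after seeing the data. A planned alignment of member proteins was not run.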

Additional observations from a re-analysis of the deposited data

Results flagged for a closer look

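Of 35 groups of 4 mouse values examined, 3 had a mouse whose gap to its nearest neighbour exceeded Dixon's critical share of the range for 4 values, which chance gives in about 1 group in 20. The second Hlf probe in liver had a share of 0.922, from mouse 1 at 8.0 against 1.02 to 1.56 in the others. The value of mouse 1 contains a ratio of 16.73 on 1 array. Nr1d2 in brain had a share of 0.93, from mouse 2 at -0.02 against -0.29 to -0.27. Nr1d1 (array probe 2652) in liver had a share of 0.831, from mouse 1 at 0.97 against 0.02 to 0.18, and its other probe was at -0.54 in that mouse.

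The second Hlf probe lay below 0 in all 3 brain mice with a value and above 0 in all 4 liver mice. Its liver-minus-brain difference was 6.11 (SE 2.22), which had an adjusted p of 0.739 by limma, and it contains both floor ratios of the members.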

How the results depend on the processing

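Over 15 alternatives no member probe changed its side of an adjusted p of 0.05. The 5 Per2, Per3 and Tef probes lay below 0 in liver in 25 of 25 values over 5 of the alternatives. These centred or scaled the arrays or used 1 labelling, while leaving out a mouse, averaging probes and the filters could not turn their sign. The 25 values are not independent support. Scaling gave these probes the same values with and without floor ratios, and centring moved the first Per2 probe only from -0.278 to -0.264. The arrays of 1 labelling are part of the reported mean of these probes. The lowest adjusted p over all alternatives was 0.18. Their liver means ranged from -0.45 to -0.10 and from -0.62 to -0.40 for Per2, from -0.48 to -0.15 for Per3 and from -0.63 to -0.15 and from -0.49 to -0.27 for Tef. Of the members' values under these alternatives, 113 kept their sign and 9 turned it in brain, 121 and 5 did in liver and 121 and 10 for the difference. The cause was not tested.

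With only the arrays that had mutant RNA in Cy5, the brain means were 0.10 for Per3, 0.34 for the first Tef probe, 0.69 for the second Hlf probe, 0.36 for Nr1d2 and -0.05 for Bhlhe41, the liver mean of Bhlhe41 was -0.011 and the difference of the second Per2 probe 0.17. With only those in Cy3, the liver means were 0.088 and -0.19 for the Hlf probes and -0.15 for Nr1d2, and the difference of the first Hlf probe was 0.18. Averaging the probes of a gene gave -0.016 for Tef in brain, and 1.42 in liver and 2.67 in the difference for Hlf. Scaling, alone or with floor ratios removed, gave a difference of 0.079 for the first Per2 probe. Leaving out each mouse in turn gave brain means of -0.052 to 0.229 for the second Tef probe and -0.198 to 0.033 for the first Hlf probe. For the brain means of the first Per2 probe, Per3 and Bhlhe41 it gave -0.371 to -0.134, -0.205 to -0.026 and 0.01 to 0.349. It gave differences of -0.178 to 0.076 and -0.327 to 0.093 for Per2, -0.226 to 0.008 for the first Hlf probe, -0.383 to -0.098 for Per3 and -0.11 to 0.27 for Bhlhe41.

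Over all probes, those called in brain numbered 2 with Cy5 arrays alone and 1 where 1 array sufficed. Leaving out each mouse in turn gave 0 in brain, 0 to 2 in liver and 0 to 7 for the difference (7 without mouse 1, 5 without mouse 2, 0 without mouse 3 and 2 without mouse 4). For the difference, 2 were called with floor ratios removed, alone or with scaling, and 0 with complete probes or with a trended robust fit. With the mouse as a replicate block 1 probe was called, Nr1d2 differed by 0.32 and the block changed no member's call. Member probes below 0 in every brain mouse numbered 1 with floor ratios removed, Cy5 arrays or complete probes, 4 with Cy3 arrays and 2 to 4 with a mouse left out (4 without mouse 4), and those above 0 to 1. In liver those below numbered 3 of 9 with Cy5 arrays, 4 with Cy3 arrays, 5 with scaling and 3 of 6 with the probes of a gene averaged. Those above numbered 1 with Cy3 arrays and 2 to 3 with a mouse left out. Among these alternatives, the share of all probes was counted only for liver below 0 with Cy5 arrays (12.1%) and brain below 0 without mouse 4 (11.7%). The other counts therefore have no background beside them and are no result about the members.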
